A study of Homo sapiens with 24 samples.

Results

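Mitochondrial ribosomal proteins were followed through 24 microarrays of BT-474 breast cancer cells in which HER2 had been depleted by siRNA and estrogen added. The genes were taken by symbol, as every gene named MRPL or MRPS with a number and without pseudogenes, that had a probe set annotated to it alone. This gave 75 genes of 19775 with a probe set of their own on the array, 50 for the large subunit and 25 for the small one, and each was represented by the probe set with the highest mean over the 24 arrays. 2 further genes of the family, MRPL53 and MRPS24, were measured only by probe sets shared with other genes and were not analysed here. All 75 passed the filter for low levels, a log2 level of at least 5 in at least 3 arrays, as did 14335 genes in all.

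The mitochondrial ribosome makes the few proteins that mitochondrial DNA encodes, all of them core subunits of the respiratory chain and ATP synthase. Its ribosomal RNAs come from mitochondrial DNA, whereas every protein of the particle is encoded in the nucleus, made on cytosolic ribosomes and imported. Many of these proteins descend from those of bacterial ribosomes, and others are found only in mitochondria. The particle is built with help from dedicated assembly factors, and its genes belong to the wider programme of mitochondrial biogenesis, in which the transcription factors NRF1, GABPA and MYC and the PGC-1 coactivators are known to act.

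BT-474 is an established human breast cancer line with an amplified ERBB2 gene, which encodes HER2, and with estrogen receptor. Cells received HER2 siRNA or control siRNA and then 10 nM estrogen or the vehicle, 0.001% ethanol, for 4 h or 24 h. The 8 groups, one for each combination of siRNA, hormone and time, held 3 arrays each, and total RNA was hybridised to HG-U133 Plus 2.0 arrays. The labels do not say whether the 3 arrays of a group came from separate cultures, so the tests measure the spread between these arrays, which may be technical. One array, replicate 3 of HER2 siRNA with estrogen at 4 h, has a source name that gives 24 h while its title gives 4 h, and it was kept at 4 h. 3 of the replicate 1 arrays (control siRNA with vehicle at 24 h, control siRNA with estrogen at 24 h, and HER2 siRNA with estrogen at 4 h) carry running numbers in the labels that lie apart from those of the other 21. Values are the deposited log2 RMA levels, so a difference of 1 is a doubling, and only differences of 1 probe set between groups are compared, never the levels of different probe sets.

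The targeted gene and the identity of the cells were checked first. ERBB2 lay between 13.39 and 13.94 on the 12 control siRNA arrays and between 11.86 and 12.69 on the 12 HER2 siRNA arrays, a difference of -1.34 ± 0.06 (SE). All 8 luminal epithelial markers had a median of at least 7, with a mean level of 12.06 to 12.38 on the control siRNA arrays and 11.87 to 12.16 on the HER2 siRNA arrays. ERBB2 is itself one of the 8, so its fall after HER2 siRNA enters these means. Of the markers for other cells, 0 of 4 leukocyte genes reached a median of 7, and VIM, COL1A1 and VWF were the only basal or mesenchymal, fibroblast and endothelial genes that did. The log2 level of the 3′ GAPDH control probe set minus the 5′ one, which grows as RNA is shortened from its 5′ end, averaged 0.305 ± 0.066 (SD) over the 12 arrays of control siRNA and 0.443 ± 0.060 over the 12 of HER2 siRNA. The ranges overlapped, at 0.250 to 0.420 and 0.340 to 0.529.

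As examples of what stands before these genes, the 100 bases upstream of a RefSeq transcription start (GRCh38.p14) are given for 6 genes that changed. Of these, 4 were lower and 2 higher after HER2 siRNA, and a match to a motif named below is in capitals. All 6 stretches hold a match, and where a gene has several starts, one with more matches was preferred. The 6 come from a list set by hand and do not show how common a match is. Counts over 67 genes are given below. MRPL18 also has an ETS match before another of its starts, which is not shown. The first 4 are MRPL48 (chr11:73787774-73787873, plus strand), MRPL3 (chr3:131502972-131503071, minus strand), MRPL18 (chr6:159789712-159789811, plus strand) and MRPL17 (chr11:6683341-6683440, minus strand), with an ETS motif in the first pair, an E2F motif in MRPL18 and NRF1 motifs in MRPL17.
MRPL48: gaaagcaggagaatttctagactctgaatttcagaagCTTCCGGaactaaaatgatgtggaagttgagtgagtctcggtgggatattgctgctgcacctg
MRPL3: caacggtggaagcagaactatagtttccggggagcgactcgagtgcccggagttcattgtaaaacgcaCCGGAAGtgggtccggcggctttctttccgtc
MRPL18: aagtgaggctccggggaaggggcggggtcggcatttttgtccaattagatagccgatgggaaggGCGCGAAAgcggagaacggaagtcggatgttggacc
MRPL17: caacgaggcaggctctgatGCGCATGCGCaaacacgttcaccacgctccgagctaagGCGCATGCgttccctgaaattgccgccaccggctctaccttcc
The other two, MRPL40 (chr22:19432445-19432544, plus strand) and MRPS21 (chr1:150293761-150293860, plus strand), were higher after HER2 siRNA, and both hold the ETS motif, 11 bases before the start.
MRPL40: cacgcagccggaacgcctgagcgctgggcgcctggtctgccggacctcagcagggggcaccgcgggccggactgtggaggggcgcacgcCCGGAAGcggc
MRPS21: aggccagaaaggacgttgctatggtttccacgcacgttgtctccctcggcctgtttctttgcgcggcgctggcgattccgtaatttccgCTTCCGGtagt
RefSeq promoters, running from 250 bases before to 50 after the start, were matched for 67 of the 75 genes and searched on both strands. The ETS motif CCGGAAG, which GABPA binds, was present in 29 of 67 (43.3%), against 12.2% of 27305 genes. It was found in 16 of the 36 matched genes that fell after HER2 siRNA, in 5 of the 10 that rose and in 8 of the 21 that passed the test in neither direction. The YY1 motif AAGATGGCG was present in 12 (17.9%, against 2.14% of all genes) and the E-box CACGTG, which MYC binds, in 9 (13.4%, against 8.77%). The NRF1 motif GCATGCGC was found in 6 (8.96%, against 3.68%), among them MRPL17, which holds it 3 times, with 2 of these matches overlapping on opposite strands. The E2F motif TTTCGCGC was found in MRPL18 alone (1.49%, against 0.630%). The full palindrome of the estrogen response element was found in 0 of 67, and in 0.0732% of all genes. The 27305 genes were not limited to protein-coding genes or to the 14335 tested, whereas the 67 are protein-coding and passed the filter. The shares therefore compare unlike sets. A match to these letters describes the sequence only, and binding was not measured here.

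HER2 siRNA lowered many more of the mitochondrial ribosomal protein genes than it raised. Averaged over the 4 conditions of hormone and time, 40 of 75 fell and 13 rose at an adjusted p below 0.05 (limma, Benjamini-Hochberg over all 14335 genes), and the other 22 passed in neither direction. The same comparison called 59.2% of all genes tested, 29.1% lower and 30.1% higher, so the share of these genes that fell, 53.3%, stood above that of all genes and the share that rose, 17.3%, below it. The median difference over the 75 was -0.11, against a median of 0.00 over all genes. Of the 22 genes that were not called, 20 had a 95% interval of the difference that lay within 0.2 of 0 on either side. In bulk RNA, fewer cells that express a gene and less RNA per cell cannot be told apart.

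**Figure D1:**
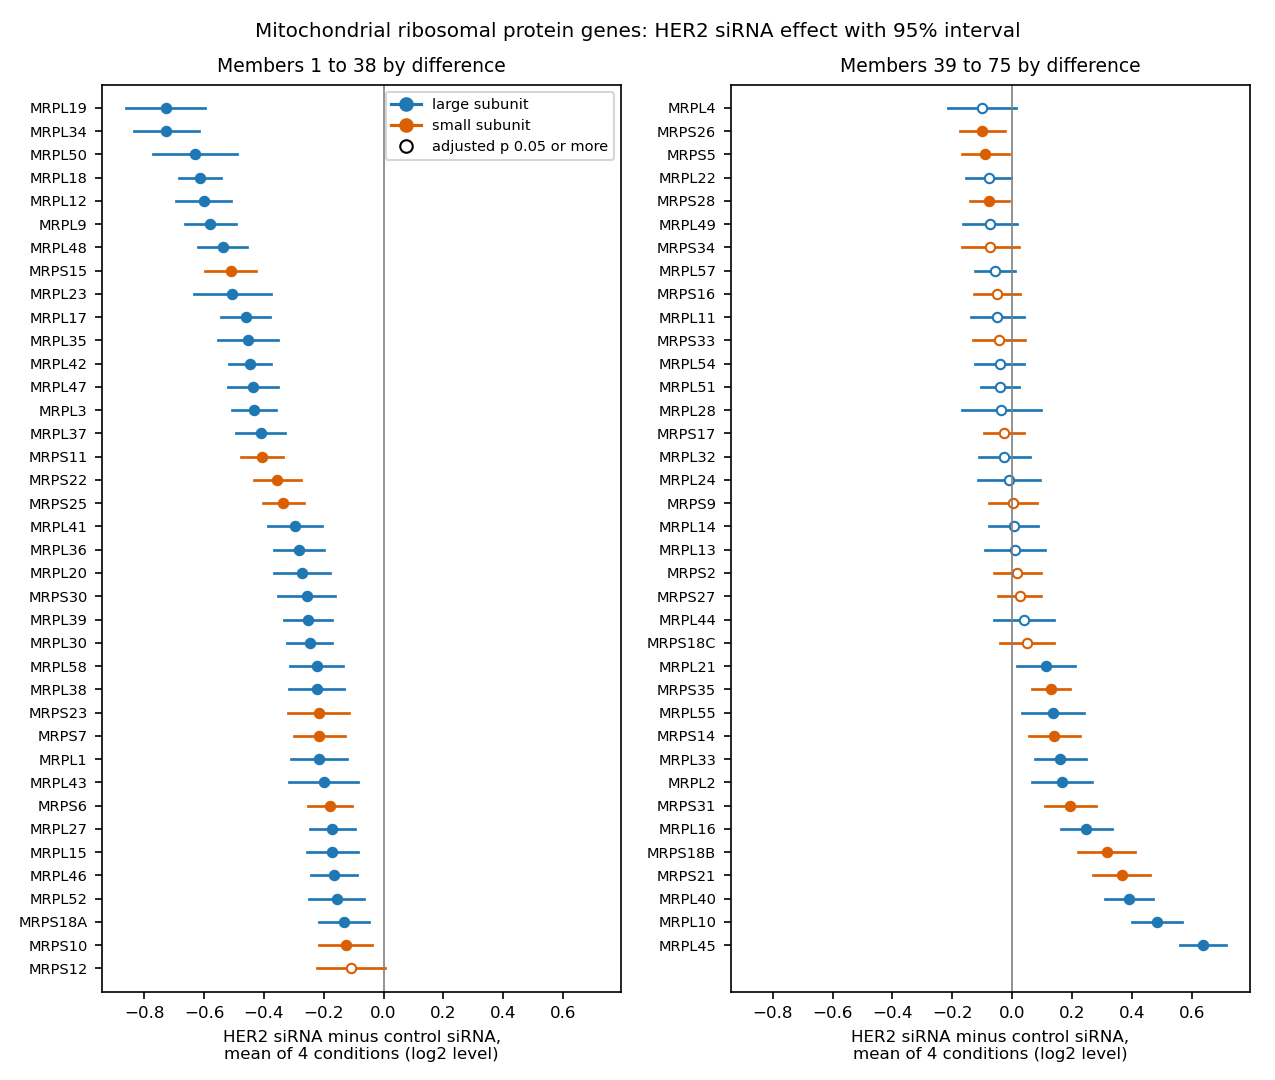
Difference between HER2 siRNA and control siRNA for each of the 75 genes, as the mean of 4 conditions on the log2 scale (x axis), in order of the difference and split over 2 panels; bars are 95% intervals from limma, blue marks the large subunit, orange the small subunit, and open points did not reach an adjusted p of 0.05. Differences run from -0.73 for MRPL19 to 0.64 for MRPL45.

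The large subunit held the largest decreases. Of its 50 proteins 29 fell and 8 rose, with a median difference of -0.17. Of the 25 of the small subunit 11 fell and 5 rose, with a median of -0.07. Proteins with a bacterial counterpart (23 of 45 lower, 8 higher) and those found only in mitochondria (16 of 28 lower, 4 higher) had medians of -0.10 and -0.16. These classes do not cover all 75 genes. No test was made between them.

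MRPL34, the counterpart of a small basic protein of the bacterial large subunit, fell in every condition. With vehicle at 4 h its log2 level was 9.63, 9.76 and 9.71 with control siRNA and 8.92, 8.87 and 8.93 with HER2 siRNA, and with estrogen at 4 h it was 9.88, 9.71 and 9.92 against 9.30, 9.03 and 9.01. With vehicle at 24 h it was 9.89, 9.88 and 9.51 against 8.97, 9.03 and 8.92, and with estrogen at 24 h 9.78, 9.74 and 9.53 against 8.96, 9.25 and 9.04. All 12 HER2 siRNA arrays lay below all 12 control siRNA arrays. The averaged difference was -0.73 ± 0.05 (SE, adjusted p 7.48e-11 by limma), which left 60.5% of the control level.

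MRPL18, whose bacterial counterpart binds 5S ribosomal RNA, had the smallest adjusted p of the genes that fell. Its 12 control siRNA arrays ran from 10.09 to 10.48 (median 10.21) and its 12 HER2 siRNA arrays from 9.49 to 9.84 (median 9.60). The arms did not overlap, and the difference was -0.61 ± 0.03 (SE, adjusted p 1.01e-12). MRPL19, MRPL50 and MRPL9 also showed no overlap between the arms. MRPL19, which lies at the face where the subunits meet, ran from 9.56 to 9.93 against 8.64 to 9.46 (-0.73 ± 0.06), MRPL50, found only in mitochondria, from 8.66 to 9.37 against 8.02 to 8.63 (-0.63 ± 0.07), and MRPL9 from 10.08 to 10.34 against 9.53 to 9.82 (-0.58 ± 0.04).

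MRPL12 forms the flexible stalk that recruits translation factors and also binds the mitochondrial RNA polymerase. Its level ran from 9.97 to 10.67 with control siRNA and from 9.39 to 10.00 with HER2 siRNA, so that the arms overlapped by a narrow margin, at a difference of -0.60 ± 0.04 (SE, adjusted p 9.96e-11). The 1 other probe set of MRPL12 that was tested did not pass here, or for estrogen at 24 h with either siRNA. MRPL10, which anchors MRPL12 to the particle, moved the other way and rose by 0.48 ± 0.04 (adjusted p 6.08e-10). Its 12 control siRNA arrays (8.46 to 8.70) lay below all 12 HER2 siRNA arrays (8.96 to 9.25). The remaining genes among the 10 with the largest decreases were MRPL48 of the central protuberance (-0.54 ± 0.04), MRPS15 (-0.51 ± 0.04), and MRPL23 (-0.51 ± 0.06) and MRPL17 (-0.46 ± 0.04), which lie near the mouth of the exit tunnel. MRPS15 is the small-subunit gene with the largest decrease. Its bacterial counterpart joins the small subunit early in assembly.

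MRPL45, which contacts the inner membrane where the new protein leaves the ribosome, showed the largest increase. With vehicle at 4 h its level was 11.64, 11.67 and 11.65 with control siRNA and 12.04, 12.13 and 12.14 with HER2 siRNA, and with estrogen at 4 h 11.74, 11.68 and 11.66 against 12.19, 12.11 and 12.23. With vehicle at 24 h it was 11.45, 11.43 and 11.25 against 12.15, 12.27 and 12.11, and with estrogen at 24 h 11.54, 11.32 and 11.45 against 12.15, 12.32 and 12.31. Every HER2 siRNA array lay above every control siRNA array, and the averaged difference was 0.64 ± 0.04 (SE, adjusted p 2.29e-12), or 156% of the control level. MRPL45 lies on chromosome 17, with 30 protein-coding genes between it and ERBB2 in RefSeq. It rose while ERBB2 fell.

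MRPL40, of the central protuberance, rose by 0.39 ± 0.04 with no overlap between the arms (8.69 to 8.87 against 9.01 to 9.34). MRPS21 rose by 0.37 ± 0.05 and MRPS18B by 0.32 ± 0.05. MRPS18B is one of a set of 3 paralogs that occupy different places in the ribosome. Of the others, MRPS18A, which sits in the large subunit, fell by 0.13 ± 0.04 on the log2 scale, and MRPS18C, which takes the place of the bacterial protein, showed 0.05 ± 0.04 (adjusted p 0.358). MRPL16 (0.25 ± 0.04), MRPS31 (0.19 ± 0.04), MRPL2 (0.17 ± 0.05), MRPL33 (0.16 ± 0.04) and MRPS14 (0.14 ± 0.04) made up the rest of the 10 largest increases. MRPL16 and MRPL2 lie at the core of the large subunit, near the peptidyl transferase centre. MRPS23 (-0.22 ± 0.05) was the one gene for which another probe set passed the test in the opposite direction. Of the genes above, MRPL12, MRPL23, MRPS18A and MRPS31 each had 1 other probe set tested, which did not pass. For MRPL2, MRPL9, MRPL19, MRPL50, MRPS14, MRPS15 and MRPS18B the other probe sets tested all passed the same way.

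The GAPDH measure given above differed between the siRNAs. With it as a covariate, 28 genes fell and 10 rose, and 46.0% of all genes were called in either direction. The shares of all genes lower and higher under this covariate are not given here, so these counts are not set beside them. None of the 53 genes called as reported turned its direction. Of these 53, 15 no longer reached the threshold, MRPS18A, MRPS23, MRPS14 and MRPL38 among those named here.

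**Figure D2:**
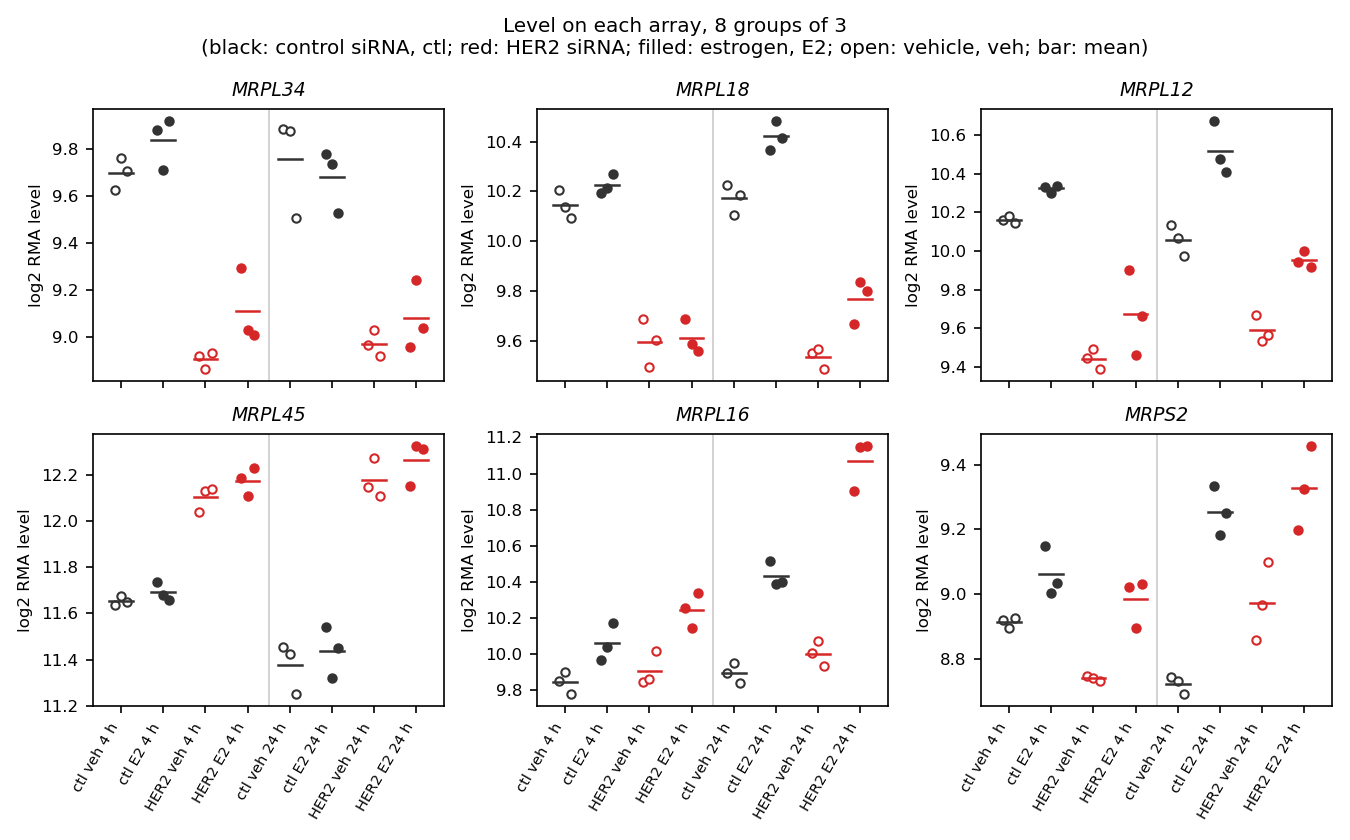
Log2 RMA level (y axes, scaled to each gene) on each array in the 8 groups of 3 for MRPL34, MRPL18, MRPL12, MRPL45, MRPL16 and MRPS2; black is control siRNA, red HER2 siRNA, filled points estrogen, open points vehicle, and bars are group means. The red points lie below the black ones for MRPL34 and MRPL18 and above them for MRPL45, and for MRPL16 the highest points are those with HER2 siRNA and estrogen at 24 h (10.90, 11.15 and 11.15).

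The decrease was present in each condition taken alone. With vehicle at 4 h, 23 of the 75 genes were lower and 7 higher (34.2% of all genes were called, 17.8% lower and 16.5% higher). With estrogen at 4 h, 23 were lower and 7 higher (34.1% of all genes, 17.3% lower and 16.8% higher). At 24 h the counts were 34 lower and 8 higher with vehicle (41.5% of all genes, 21.8% lower and 19.7% higher) and 31 lower and 7 higher with estrogen (42.0% of all genes, 20.5% lower and 21.5% higher). Without replicate 3 of HER2 siRNA with estrogen at 4 h, the array with the unclear time, the estrogen 4 h comparison called 20 genes where it had called 30.

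In all 4 conditions 24 genes were called, each always in 1 direction (12.2% of all genes were lower in all 4 and 10.6% higher). 19 were lower, namely MRPL3, MRPL9, MRPL12, MRPL17, MRPL18, MRPL19, MRPL23, MRPL34, MRPL35, MRPL36, MRPL37, MRPL42, MRPL47, MRPL48, MRPL50, MRPS11, MRPS15, MRPS22 and MRPS25. 5 were higher, namely MRPL10, MRPL40, MRPL45, MRPS18B and MRPS21. No gene was called lower in one condition and higher in another. The vehicle comparison at 4 h and the estrogen comparison at 24 h share no arrays, and 22 genes were lower in both, 95.7% of the 23 and 71.0% of the 31. Over all genes tested the same overlap was 81.7% and 70.8% of the genes lower in each. For 13 genes every HER2 siRNA array lay below every control siRNA array, and for 3, MRPL10, MRPL40 and MRPL45, every one lay above, against 8.69% and 7.16% of all genes.

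The siRNA effect differed between the times for 4 of the 75 genes, 2 each way (2.95% of all genes, 1.73% higher and 1.22% lower). MRPL30, which has a bacterial counterpart in the large subunit, showed no called difference at 4 h, with 9.71, 9.72 and 9.62 against 9.68, 9.64 and 9.70 under vehicle. At 24 h it was 9.93, 9.82 and 9.96 with control siRNA and 9.56, 9.41 and 9.36 with HER2 siRNA, and the arms no longer overlapped. The siRNA effect at 24 h minus that at 4 h, over both hormones, was -0.42 ± 0.07 (SE, adjusted p 0.00257). MRPS9 changed the same way (-0.31 ± 0.08, adjusted p 0.0324), from 0.19 ± 0.08 at 4 h to -0.20 ± 0.08 at 24 h with vehicle and from 0.12 ± 0.08 to -0.10 ± 0.08 with estrogen. MRPL45 went from 0.45 ± 0.07 to 0.80 ± 0.07 with vehicle and from 0.48 ± 0.07 to 0.82 ± 0.07 with estrogen (difference 0.35 ± 0.07, adjusted p 0.0143). MRPS2 went from -0.17 ± 0.07 to 0.25 ± 0.07 with vehicle and from -0.08 ± 0.07 to 0.07 ± 0.07 with estrogen (difference over both hormones 0.29 ± 0.07, adjusted p 0.0411). The calls for MRPS2 and MRPS9 were lost when genes of low level were kept in the test, and also when single arrays were left out, for MRPS2 with 17 of the 24 arrays (adjusted p 0.0521 to 0.0776, limma) and for MRPS9 with 10 (0.0504 to 0.0622). Those of MRPL30 and MRPL45 held without each array.

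Estrogen raised some of these genes at 24 h and lowered none past the threshold. With control siRNA 13 rose and 0 fell (13.5% of all genes were called, 7.01% higher and 6.52% lower), and at an unadjusted p under 0.05 these counts were 23 and 0 (12.4% and 13.6% of all genes). With HER2 siRNA 9 rose and 0 fell (6.17% of all genes, 4.28% higher and 1.90% lower), with 19 and 0 at an unadjusted p under 0.05 (9.71% and 6.30% of all genes). The median difference over the 75 genes was 0.10 with either siRNA, against -0.01 and 0.00 over all genes. All 9 genes of the second comparison, which shares no arrays with the first, were among the 13 of the first, namely MRPL3, MRPL12, MRPL15, MRPL16, MRPL17, MRPL18, MRPL24, MRPL42 and MRPS2. They are 69.2% of the 13, against 46.2% of all genes that rose in the first comparison. Of all genes that rose in the second, 75.7% also rose in the first. MRPL37, MRPS6, MRPS16 and MRPS27 were called with control siRNA alone. At 24 h the GAPDH measure was 0.362 ± 0.083 (SD, n = 3) with vehicle and 0.267 ± 0.011 with estrogen under control siRNA, with overlapping ranges, and 0.461 ± 0.047 and 0.451 ± 0.019 under HER2 siRNA. With it as a covariate MRPL18 and MRPL24 lost their call with control siRNA, which left 11 genes, and all 9 stayed called with HER2 siRNA. Scaling of the arrays mattered for a few genes. With HER2 siRNA, MRPL18 lost its call under each of 3 other scalings, MRPL24 under 2 and MRPL12 under 1, and with control siRNA MRPL24 and MRPS16 lost theirs under 2. The call of MRPL12 with control siRNA also ended when the probe sets of a gene were averaged (adjusted p 0.117, limma).

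MRPL16, whose bacterial counterpart helps to position transfer RNA, had the largest estrogen response with either siRNA. At 24 h with control siRNA its level was 9.89, 9.95 and 9.84 with vehicle and 10.51, 10.39 and 10.40 with estrogen (difference 0.54 ± 0.08, adjusted p 1.10e-04). With HER2 siRNA it was 10.00, 10.07 and 9.93 with vehicle and 10.90, 11.15 and 11.15 with estrogen (difference 1.07 ± 0.08, adjusted p 1.04e-08). The estrogen arrays lay above the vehicle arrays with both siRNAs, and the level rose to 145% and 209% of vehicle. The difference between these estrogen effects was 0.53 ± 0.12 (95% interval 0.29 to 0.77, adjusted p 0.0956). In that interaction test 0 of the 75 genes were called (0.0628% of all genes, 0.0488% higher and 0.0140% lower) by limma, 1 at an unadjusted p under 0.05, MRPL16 itself (6.04% of all genes), and 1 with an intensity trend and robust prior.

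MRPS2, of the small subunit, rose at 24 h from 8.74, 8.73 and 8.69 to 9.33, 9.18 and 9.25 with control siRNA (0.53 ± 0.07, adjusted p 4.56e-05). With HER2 siRNA it rose from 8.86, 8.97 and 9.10 to 9.20, 9.33 and 9.46 (0.35 ± 0.07, adjusted p 0.00426). The estrogen and vehicle arrays did not overlap with either siRNA. The other genes among the 5 largest increases past the threshold were MRPL12 (0.46 ± 0.09), MRPL42 (0.37 ± 0.07) and MRPL3 (0.36 ± 0.07) with control siRNA, and MRPL17 (0.41 ± 0.08), MRPL42 (0.40 ± 0.07), MRPL15 (0.37 ± 0.08) and MRPL24 (0.36 ± 0.10) with HER2 siRNA. MRPL42 had 2 other probe sets tested, of which 1 passed the same way with control siRNA and 0 with HER2 siRNA. For MRPS16 the 1 other probe set tested did not pass with control siRNA. Of the 13 genes, 10 have a bacterial counterpart, as do 45 of the 75. The call of MRPL24 with HER2 siRNA ended without any 1 of 5 arrays, replicates 1, 2 and 3 with estrogen and 2 and 3 with vehicle (adjusted p 0.0505 to 0.189, limma), and that of MRPL15 without replicate 3 with estrogen (adjusted p 0.0638).

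**Figure D3:**
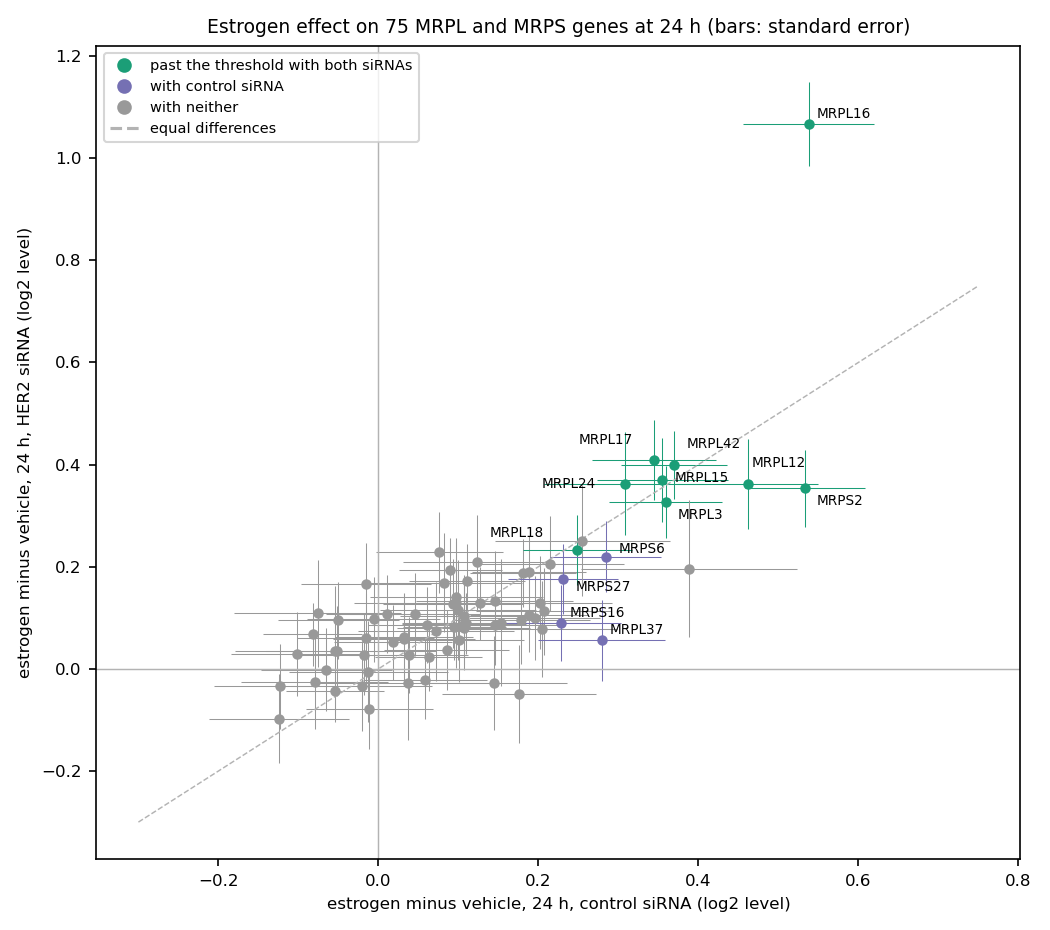
Estrogen minus vehicle at 24 h on the log2 scale for the 75 genes with control siRNA (x axis) and HER2 siRNA (y axis); bars are standard errors, the dashed line marks equal differences, and colours mark the 9 genes called with both siRNAs (green), the 4 with control siRNA alone (violet) and the rest (grey). MRPL16 stands apart at 0.54 and 1.07.

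At 4 h of estrogen no gene passed the threshold. With control siRNA 0 of 75 were called (0.342% of all genes, 0.335% higher and 0.00698% lower) by limma, with 2 higher and 0 lower at an unadjusted p under 0.05 (2.91% and 1.01% of all genes). With HER2 siRNA 0 were called (0.698% of all genes, 0.663% higher and 0.0349% lower), with 8 higher and 0 lower at an unadjusted p under 0.05 (5.23% and 2.18% of all genes). MRPL16 was the nearest to the threshold, at 10.25, 10.14 and 10.34 with estrogen against 9.84, 9.86 and 10.02 with vehicle under HER2 siRNA (0.34 ± 0.08, adjusted p 0.0620), and 1 gene was called in this comparison by several alternative settings.

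Some genes fell with HER2 siRNA and rose with estrogen. Of the 23 genes that HER2 siRNA lowered with vehicle at 4 h, 6 were raised by estrogen at 24 h with control siRNA, a comparison that shares no arrays with it, and these 6 are 26.1% of the 23 and 46.2% of the 13. Over all genes tested the same overlap was 21.7% of the genes lowered and 54.9% of those raised. They were MRPL3, MRPL12, MRPL17, MRPL18, MRPL37 and MRPL42. None of the 7 genes raised by HER2 siRNA with vehicle at 4 h were among the 13, against 2.63% of all genes so raised. MRPL12, by the probe set used here, shows the order of the groups. At 24 h control siRNA with estrogen had a mean of 10.52 ± 0.14 (SD, n = 3), control siRNA with vehicle 10.06 ± 0.08, HER2 siRNA with estrogen 9.95 ± 0.04 and HER2 siRNA with vehicle 9.59 ± 0.07. The middle 2 of these groups overlapped in their single values. Over the 75 genes, the group with the highest mean was control siRNA with estrogen at 24 h for 33 and the group with the lowest mean was HER2 siRNA with vehicle at 24 h for 38. The same counts were not made over all genes, so whether they are particular to the 75 was not tested. The span between a gene's highest and lowest group means ranged from 0.085 for MRPL51 to 1.23 for MRPL16, with a median of 0.42, beside a median SD within groups of 0.092.

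Between the times 1 to 3 of these genes were called in each pair of groups. From 4 h to 24 h, 0 rose and 1 fell with control siRNA and vehicle (0.781% of all genes, 0.363% higher and 0.419% lower), and 0 rose and 1 fell with HER2 siRNA and vehicle (6.46% of all genes, 3.03% higher and 3.43% lower). The gene was MRPS10 in both, at 9.86, 9.78 and 9.65 and then 9.39, 9.23 and 9.26 with control siRNA (-0.47 ± 0.08, adjusted p 0.0152), and at -0.32 ± 0.08 with HER2 siRNA (adjusted p 0.0278). The times did not overlap with control siRNA. MRPS10 was no longer called in either comparison when the probe sets of a gene were averaged, or without any 1 of 4 arrays with control siRNA (adjusted p 0.0560 to 0.0989, limma) and of 5 with HER2 siRNA (0.0519 to 0.15). With estrogen, 2 rose and 1 fell in control siRNA cells (5.96% of all genes, 2.53% higher and 3.43% lower), MRPL16 by 0.37 ± 0.08, MRPL30 by 0.35 ± 0.07 and MRPL45 at -0.25 ± 0.07. In HER2 siRNA cells 2 rose and 0 fell (6.21% of all genes, 3.06% higher and 3.15% lower), MRPL16 by 0.82 ± 0.08 and MRPS2 by 0.34 ± 0.07. The call of MRPL45 ended without any 1 of 16 arrays (adjusted p 0.0509 to 0.219), that of MRPL16 in control siRNA cells without replicate 1 at 4 h (0.0576), and that of MRPS2 without replicate 3 at 24 h (0.0632). These counts rest on the settings: with a filter at a log2 level of 7 they were 2 and 5 under vehicle (control and HER2 siRNA), and 5 and 4 under estrogen.

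Of the remaining genes, MRPL3 fell by 0.43 ± 0.04 on the log2 scale after HER2 siRNA and MRPL38 by 0.22 ± 0.04, a call that was lost with the GAPDH covariate. The 1 other probe set of MRPL38 that was tested did not pass. MRPL49, MRPL51 and MRPS27 did not pass the test of HER2 siRNA, at -0.07 ± 0.04, -0.04 ± 0.03 and 0.03 ± 0.03.

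Genes that work with the mitochondrial ribosome were counted in the same way for the averaged effect of HER2 siRNA. In that comparison 30.1% of all genes were higher and 29.1% lower. Of 4 mitoribosomal proteins with other names, 1 fell, GADD45GIP1 (-0.24 ± 0.05). The list of translation factors leaned upward, with 7 of 13 higher and 4 lower. It held MTIF2, an initiation factor (0.52 ± 0.04), and MTRF1, a release factor (0.55 ± 0.06). It also held OXA1L (0.31 ± 0.04), which inserts new proteins into the inner membrane and is not itself a translation factor. Of 18 enzymes that charge mitochondrial transfer RNA, 5 rose and 7 fell, with LARS2 at -0.54 ± 0.04 and VARS2 at 0.57 ± 0.04. Of 22 assembly and ribosomal RNA modification factors, 7 rose and 9 fell. The GTPase NOA1 rose by 0.81 ± 0.03, while C1QBP (-0.40 ± 0.04) and FASTKD2 (-0.31 ± 0.03) fell. Of 15 genes of mitochondrial transcription and DNA maintenance, 8 rose and 4 fell, with POLG2, a subunit of the DNA polymerase, at 0.56 ± 0.04 and PNPT1, an RNA-degrading enzyme, at -0.58 ± 0.04.

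Other mitochondrial groups, apart from the regulators of biogenesis, had more genes lower than higher in this comparison (29.1% of all genes lower and 30.1% higher). Of 68 nuclear-encoded subunits of the respiratory chain and ATP synthase 32 fell and 9 rose (median -0.07), among them NDUFS7 of complex I (-0.66 ± 0.04). Of 23 genes of protein import 13 fell and 4 rose, with TOMM5 (-0.92 ± 0.05), TIMM8A (-0.71 ± 0.06) and TOMM40, the channel of the outer membrane (-0.60 ± 0.05). Of 12 tricarboxylic acid cycle enzymes 8 fell and 1 rose, IDH3A furthest (-0.91 ± 0.04). All 10 mitochondrial chaperones and proteases tested were called, 8 lower and 2 higher. HSPD1, the matrix chaperonin, fell by 0.49 ± 0.04 on the log2 scale, and CLPX, which unfolds substrates for a matrix protease, rose by 0.85 ± 0.05. Of 9 regulators of mitochondrial biogenesis 3 fell, the coactivators PPRC1 (-0.60 ± 0.05) and PPARGC1B (-0.61 ± 0.09) and the GABPA partner GABPB1 (-0.41 ± 0.05), and 3 rose, PPARGC1A, YY1 and ESRRA.

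The ribosomal proteins of the cytosol went the other way. Of 61 tested, 51 rose and 2 fell, with a median of 0.17, under the same comparison in which 40 of the 75 mitochondrial ones fell. RPL14 rose by 0.46 ± 0.03 and RPL18 by 0.43 ± 0.03, and RPL39L, a paralog, fell by 0.67 ± 0.05 on the log2 scale. The count of cytosolic genes that rose ranged from 48 to 52 of 61 under other scalings of the arrays and was 41 with the GAPDH covariate, and that of mitochondrial genes that fell ranged from 36 to 42 of 75 under other scalings.

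**Figure D4:**
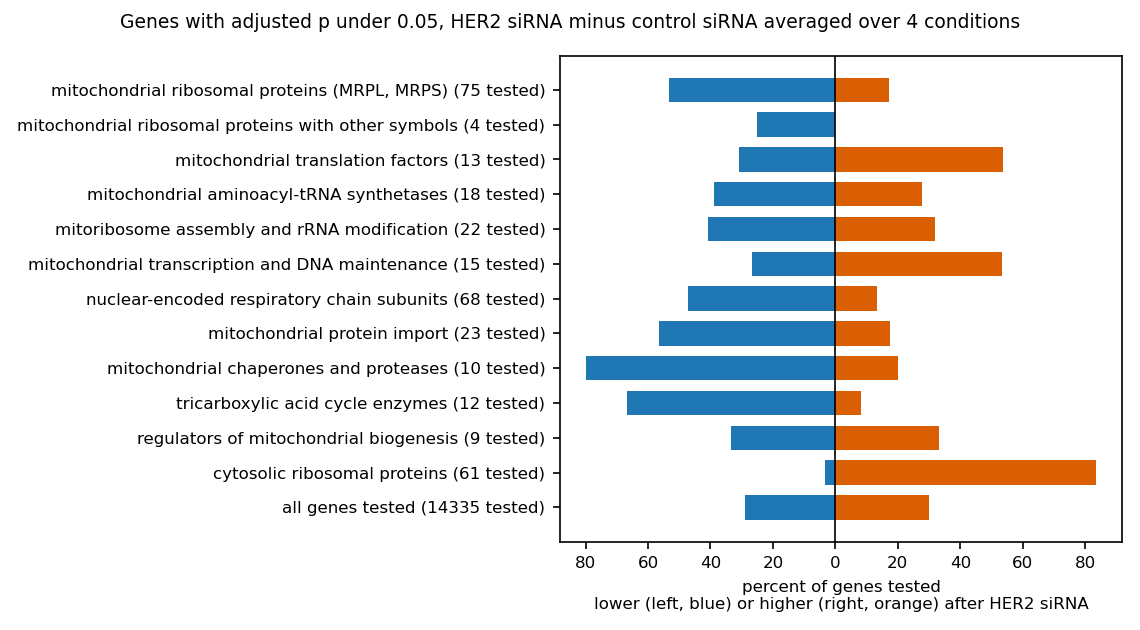
Percent of the genes tested in each group that were lower (blue, to the left) or higher (orange, to the right) with HER2 siRNA at an adjusted p under 0.05, averaged over 4 conditions; the number tested stands beside each name. Of the mitochondrial ribosomal proteins 53.3% were lower and 17.3% higher, of the cytosolic ones 3.28% were lower and 83.6% higher, and of all genes 29.1% and 30.1%.

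Several of the same groups held genes that rose with estrogen at 24 h under control siRNA, a comparison with 7.01% of all genes higher and 6.52% lower. Of 23 import genes 10 rose, TIMM8A by 0.74 ± 0.12 and TOMM40 by 0.44 ± 0.10. Of the chaperones and proteases 5 of 10 rose, with TRAP1 at 0.69 ± 0.09, and of the transcription and DNA maintenance genes 6 of 15, with the helicase TWNK at 0.66 ± 0.08 and PNPT1 at 0.49 ± 0.08. Of the 22 assembly and modification factors 3 rose, C1QBP by 0.63 ± 0.08, and of the 18 enzymes that charge transfer RNA 3 rose. None of the genes of these 5 groups fell. Of the respiratory chain subunits 2 of 68 rose, ATP5MC1 (0.31 ± 0.08) and UQCRQ (0.23 ± 0.07), with a median of -0.01. Of the 13 genes on the translation factor list 0 rose and 1 fell, MTRF1L (-0.22 ± 0.07). MYC, a regulator of ribosome and mitochondrial biogenesis, rose by 2.93 ± 0.24 and PPRC1 by 0.59 ± 0.10. The averaged difference between HER2 siRNA and control siRNA, which is not an estrogen effect, was 0.25 ± 0.12 for MYC (adjusted p 0.0810, limma). Of the cytosolic ribosomal proteins 10 of 61 rose and 0 fell, led by the paralog RPL22L1 (0.75 ± 0.09).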

How the data were processed

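RNA from 24 BT-474 samples was measured on HG-U133 Plus 2.0 arrays. The authors deposited log2 levels for 54675 probe sets, made with RMA per the submitters' processing notes, whose version is not given in the sources used here. RMA corrects background, equalises the distributions of the arrays and summarises the probes of a set. Array medians ran from 5.28 to 5.36. An array has no read depth, and the number of arrays limits the precision.

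Of the probe sets, 41091 were annotated to 1 gene symbol and 1801 to several, which were left out. The probe set with the highest mean over 24 arrays stood for each of 19775 genes, and 14335 with a log2 level of at least 5 in at least 3 arrays were tested. The 75 genes had 140 probe sets, 38 genes having 1. limma 3.58.1 (R 4.3.3) fitted 1 mean per group over all 24 arrays, with eBayes and Benjamini-Hochberg adjustment over all genes within each of 15 comparisons, at a threshold of 0.05. Errors of differences are limma's standard errors. The fit was checked on simulated data with 200 changed genes. Sequences are RefSeq's. The named genes are up to 10 each way with the largest averaged siRNA difference, up to 5 each way for the other comparisons, the 3 highest and 3 lowest in level, the MRPS18 paralogs, genes near ERBB2, members whose probe sets disagree, and up to 3 of each other group by adjusted p. The genes studied and the lists were chosen with earlier results of these data known. Alternatives covered filters, probe set choice, scaling, the prior, a GAPDH covariate, a replicate block and left-out arrays.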

Additional observations from a re-analysis of the deposited data

Results flagged for a closer look

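4 genes had an siRNA effect that differed between 4 h and 24 h by a test of the difference itself (limma, adjusted p under 0.05 over all genes). The effect at 24 h minus that at 4 h was -0.42 ± 0.07 (SE) for MRPL30, -0.31 ± 0.08 for MRPS9, 0.35 ± 0.07 for MRPL45 and 0.29 ± 0.07 for MRPS2. MRPL30 and MRPL45 kept an averaged siRNA difference past the threshold (-0.25 ± 0.04 and 0.64 ± 0.04), whereas MRPS9 and MRPS2 had averaged differences of 0.00 ± 0.04 and 0.02 ± 0.04.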

How the results depend on the processing

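The averaged siRNA count of 53 was 48 to 54 under all alternatives but the GAPDH covariate (38). Among 41 values of named genes under the alternatives, 1319 of 1394 recomputed values kept direction and side of the threshold, 75 missed the threshold and 0 reversed. 1 gene was called for estrogen at 4 h with HER2 siRNA under a log2 filter of at least 7, a replicate block, averaged probe sets per gene, or an intensity trend and robust prior, and 1 in the 24 h interaction under that prior, where 0 had been. The difference of the siRNA effect between times had 2 genes with no filter, in place of 4. For 24 h minus 4 h, control siRNA with vehicle (1 gene) gave 2 with the log2 filter of at least 7, the replicate block or the trend and robust prior, and 0 with the mean of probe sets; control siRNA with estrogen (3) gave 5 with that filter and 5 with the block; HER2 siRNA with vehicle (1) gave 5, 10 with the block, 2 with quantile normalization and 4 with the trend; and HER2 siRNA with estrogen (2) gave 4 with each of the filter, the block and the trend. The labels do not say what a replicate number marks, and the rule for pairing, a correlation of deviations over 0.1 in every same-number pair, was not met (60 of 84 pairs), so the arrays were fitted as unpaired. The median correlation was 0.205 for same-number pairs and -0.107 for the others, and 21 of 24 arrays correlated best with an array of their own number, a hint of shared numbers from the data and not from the design. Leaving out 1 array gave 50 to 54 genes for the averaged siRNA effect, 23 to 32 and 32 to 44 with vehicle at 4 h and 24 h, 20 to 31 and 33 to 42 with estrogen at 4 h and 24 h, 9 to 14 and 6 to 9 for estrogen at 24 h with control and HER2 siRNA, 0 and 0 to 1 at 4 h, 0 to 1 for the interaction, 2 to 4 for siRNA by time, and 0 to 2, 1 to 4, 0 to 7 and 1 to 4 for the times in the order above. Estrogen at 4 h with HER2 siRNA gave 1 without replicate 1 of HER2 siRNA with estrogen at 24 h or replicate 3 with vehicle at 4 h, and the interaction gave 1 without that first array. HER2 siRNA with vehicle over time gave 7 without replicate 1 at 24 h. The call of MRPL12 for estrogen with control siRNA at 24 h ended with averaged probe sets (adjusted p 0.117). Equal medians over the genes tested, chosen after seeing the data, left 6 of 9 genes for estrogen with HER2 siRNA at 24 h. The cause of these changes was not tested. Depth has no meaning for arrays, and the signal of all 75 genes lay above the filter.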
